A study of Homo sapiens with 8 samples.

Results

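The receptor tyrosine kinases described here are MET, MST1R, AXL, IGF1R, INSR, FGFR1, FGFR3, FGFR4, ROR1 and DDR1, a set of 10 genes outside the EGFR family. They were taken as all probe sets of the array whose only gene symbol in the platform annotation is 1 of these names. Of the 10 genes, 9 had such a probe set, out of 19775 genes with a probe set of their own on the array. DDR1, a receptor for collagen, had none, because its 4 probe sets also carry the microRNA gene MIR4640, and no value is given for it. The 9 measured genes had 33 probe sets, of which 26 lay at or above the filter on dim signal (a mean log2 signal of 6.00, the median over all 54613 probe sets other than controls) and 7 lay below it. The 7 dim ones were 2 of IGF1R, 1 of INSR, 1 of FGFR3 and 3 of FGFR4, so that FGFR3 and FGFR4 were each left with 1 probe set. The values of the dim ones on single arrays ran from -0.87 to 7.33.

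Side population (SP) cells, which pump out the dye Hoechst 33342, and main population (MP) cells, which retain it, had been sorted by flow cytometry from the non-small cell lung cancer lines A549 and H460 (K-Ras mutant) and H1650 and H1975 (EGFR mutant). Each line gave 1 SP and 1 MP array, 8 arrays in all, and the mutations come from the study's methods rather than from the sample labels. All cells, SP and MP, had been incubated with Hoechst 33342 and gated as viable with propidium iodide, and the labels name no other treatment. The mutation is a property of the line, so that each mutation class rests on 2 lines that also differ in everything else, and no label says that the 2 arrays of a line came from separate cultures.

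Receptor tyrosine kinases are single-pass membrane proteins. In the textbook scheme they bind a growth factor outside the cell, pair up, phosphorylate each other and recruit adaptors that switch on Ras and PI3K. Not every member follows each step of it, and DDR1 binds collagen and ROR1 binds WNT5A. In lung adenocarcinoma MET and AXL are best known as routes by which EGFR mutant cells keep signalling when EGFR is inhibited, and IGF1R and the FGF receptors have been described in the same role. K-Ras acts downstream of growth factor receptors of this kind.

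The median log2 signal lay between 5.92 and 6.29, with both H460 arrays (5.94 in SP and 5.92 in MP) at the low end. The log2 signal of the 3′ over the 5′ control probe set lay between -0.18 and -0.03 for GAPDH and between 0.23 and 0.65 for ACTB. KRT8 and KRT18, keratins of simple epithelia, had log2 signals from 12.88 to 14.33 on all arrays, while CDH1, the epithelial cadherin, was far below the filter in H460 (1.61 in SP and 0.63 in MP) and at least 7.62 in the other lines. The log2 of the summed signal of the 5 epithelial markers ranged from 14.68 to 15.96 over the SP arrays and from 14.61 to 15.96 over the MP arrays. Of the endothelial markers 1 of 4 passed the filter (PECAM1, 7.02 to 7.54), and of the leukocyte markers 2 of 5 (CD79A, 6.45 to 7.52, and CD14, 7.39 to 9.42). The rest had means below the filter, among them VWF and PTPRC, which stayed between 2.68 and 4.72. ABCG2, the pump that defines the SP, was higher in SP in A549, H460 and H1975 by 1.08, 0.36 and 1.17 on the log2 scale, but lower in the array labelled SP in H1650, where the ratio was -0.70. Directions in H1650 therefore rest on its labels, and means of SP over MP are given with and without that line.

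The 9 genes differed far more between lines than between SP and MP of a line. At the brightest probe set of each gene, all 9 passed the F test over the 4 lines (limma, Benjamini-Hochberg adjusted p under 0.05), as did 23 of the 26 probe sets (14 without H460). The share over all 27307 probe sets tested was 69.5%, so that most of the array differed between these lines too. The span from the lowest to the highest line was at least 2-fold in 7 of 9 genes and 19 of 26 probe sets, against 57.2% of all probe sets. The median span of the 9 genes was 2.13 on the log2 scale, and that of all genes of the array 1.13. These p-values measure the spread between the 2 arrays of a line only.

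**Figure D1:**
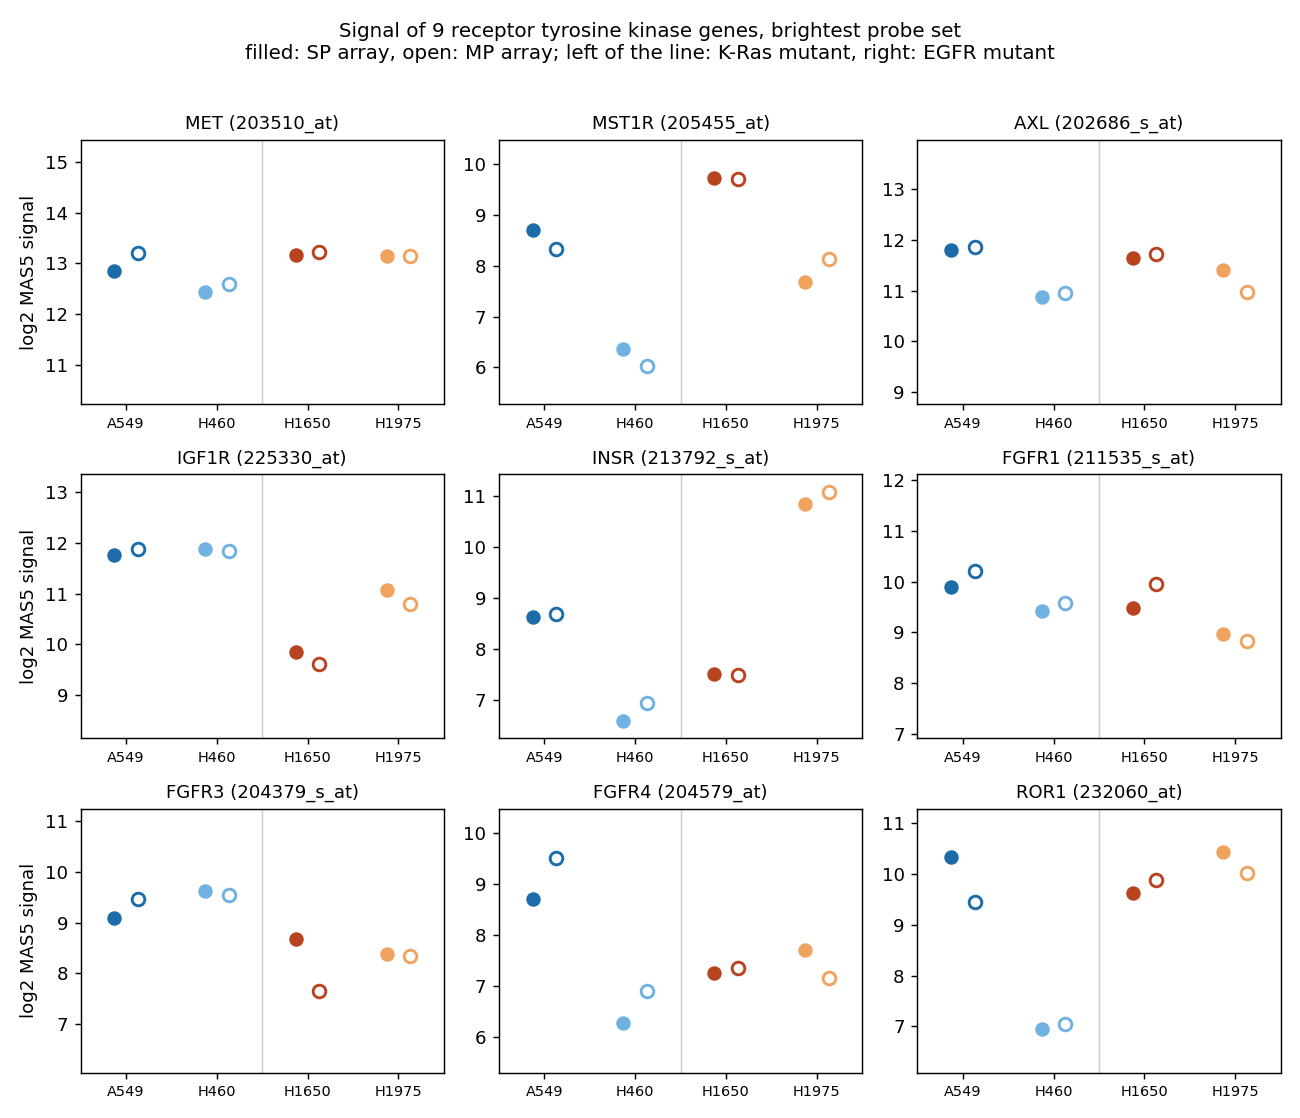
Log2 signal of the brightest probe set of each of the 9 genes in the SP and MP arrays of A549, H460, H1650 and H1975, 1 point per array. Filled points are SP and open points MP, the 2 points of a line mostly lie within 0.5 of each other, and INSR, MST1R and ROR1 span the widest range, with H460 lowest in each.

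MET, the receptor of hepatocyte growth factor, lay far above the filter in every line. Probe set 203510_at had log2 signals of 12.85 (SP) and 13.21 (MP) in A549, 12.45 (SP) and 12.59 (MP) in H460, 13.16 (SP) and 13.22 (MP) in H1650, and 13.15 (SP) and 13.15 (MP) in H1975. Both H460 arrays lay below all others, and the A549 arrays spanned the level of H1975. H1650 exceeded H460 by 1.59-fold (adjusted p = 0.00181) and A549 exceeded H460 by 1.42-fold (adjusted p = 0.0104), whereas no pair among H1650, H1975 and A549 passed. The F test gave an adjusted p of 0.00312 over the 4 lines and of 0.514 without H460. The remaining 3 MET probe sets were also lowest in H460. MET lies at chr7:116672196-116798377 of GRCh38.p14.

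MST1R (RON), the receptor of macrophage-stimulating protein and the closest relative of MET, varied more. Its single probe set 205455_at had 8.70 (SP) and 8.33 (MP) in A549, 6.37 (SP) and 6.03 (MP) in H460, 9.73 (SP) and 9.70 (MP) in H1650, and 7.67 (SP) and 8.13 (MP) in H1975. The 4 lines did not overlap. H1650 exceeded H460 by 11.5-fold (F test adjusted p = 9.36e-05), and in the order H1650, A549, H1975, H460 the neighbours A549 and H1975 did not pass (adjusted p = 0.0917).

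AXL, the receptor of GAS6, also lay far above the filter in all lines. Probe set 202686_s_at had 11.79 (SP) and 11.85 (MP) in A549, 10.88 (SP) and 10.96 (MP) in H460, 11.64 (SP) and 11.73 (MP) in H1650, and 11.40 (SP) and 10.98 (MP) in H1975. A549 and H1650 lay above the other lines, and the MP array of H1975 lay beside H460. The span of A549 over H460 was 1.87-fold (F test adjusted p = 0.00345). A549 and H1650 did not differ past the threshold (adjusted p = 0.501), nor did H1975 and H460 (0.188). The dimmer probe set 202685_s_at also had A549 highest and passed the F test at an adjusted p of 0.0404.

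IGF1R, the receptor of the insulin-like growth factors, was lowest in H1650. Probe set 225330_at had 11.76 (SP) and 11.88 (MP) in A549, 11.89 (SP) and 11.84 (MP) in H460, 9.86 (SP) and 9.62 (MP) in H1650, and 11.08 (SP) and 10.80 (MP) in H1975. A549 and H460 overlapped at the top and both H1650 arrays lay below all others. H460 exceeded H1650 by 4.37-fold (F test adjusted p = 3.21e-05), and only the neighbours H460 and A549 did not pass (adjusted p = 0.833). Probe set 203628_at was likewise lowest in H1650, with 7.21 in SP and 6.29 in MP, whereas 203627_at was lowest in H1975, and the log2 signals of both correlated with 225330_at at Pearson's r of 0.785 to 0.849 over the 8 arrays, which share 4 lines. IGF1R lies at chr15:98648539-98964530 of GRCh38.p14.

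INSR, the insulin receptor, had the widest span of the 9 genes and was highest in H1975. Probe set 213792_s_at had 8.62 (SP) and 8.68 (MP) in A549, 6.59 (SP) and 6.93 (MP) in H460, 7.50 (SP) and 7.49 (MP) in H1650, and 10.84 (SP) and 11.09 (MP) in H1975. The lines did not overlap, and H1975 exceeded H460 by 18.5-fold (F test adjusted p = 8.93e-06). All 6 pairs of lines passed at this probe set, including H1650 over H460, the closest pair, at 0.74 on the log2 scale (adjusted p = 0.0157). That pair did not pass at 226450_at, 226212_s_at or 226216_at (adjusted p = 0.250, 0.290 and 0.978), and 226216_at was lowest in H1650. At 226212_s_at and 226216_at both lines lay below the filter level. Their means were 4.98 in H460 and 5.45 in H1650 at 226212_s_at, and 5.68 and 5.67 at 226216_at. Their order there is therefore imprecise. The remaining 3 INSR probe sets above the filter were also highest in H1975, with r of 0.976 to 0.984 to the brightest over the 8 arrays. At the brightest probe sets the order of INSR, H1975 at the top and H460 at the bottom, was not that of its relative IGF1R. For IGF1R, H460 and A549 were at the top and H1650 at the bottom.

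FGFR1, a receptor of fibroblast growth factors, spanned 1.16 on the log2 scale at its brightest probe set, near the median of all genes (1.13). Probe set 211535_s_at had 9.90 (SP) and 10.20 (MP) in A549, 9.42 (SP) and 9.57 (MP) in H460, 9.47 (SP) and 9.95 (MP) in H1650, and 8.96 (SP) and 8.82 (MP) in H1975. The H1975 arrays lay below all others and the remaining lines overlapped. A549 exceeded H1975 by 2.24-fold (F test adjusted p = 0.00446, and 0.0578 without H1975). Of 7 FGFR1 probe sets, 4 passed the F test, and 215404_x_at, 207937_x_at and 207822_at did not (adjusted p = 0.439, 0.571 and 0.201). Their correlation with the brightest ran from 0.235 to 0.799 over the 8 arrays, so the FGFR1 probe sets disagree and a value for the gene depends on which is read.

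FGFR3 was highest in H460, the line with the lowest signal of most of the other genes. Probe set 204379_s_at had 9.09 (SP) and 9.45 (MP) in A549, 9.62 (SP) and 9.55 (MP) in H460, 8.67 (SP) and 7.66 (MP) in H1650, and 8.39 (SP) and 8.33 (MP) in H1975. Both K-Ras mutant lines lay above both EGFR mutant lines. H460 exceeded H1650 by 2.67-fold (F test adjusted p = 0.00956, and 0.0533 without H460), and neither H460 and A549 nor H1975 and H1650 differed past the threshold (adjusted p = 0.475 and 0.647).

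FGFR4, whose ligands include the endocrine factor FGF19, was highest in A549. Probe set 204579_at had 8.71 (SP) and 9.51 (MP) in A549, 6.26 (SP) and 6.91 (MP) in H460, 7.26 (SP) and 7.34 (MP) in H1650, and 7.72 (SP) and 7.15 (MP) in H1975. The A549 arrays lay apart from the rest, and H1650 and H1975 overlapped. A549 exceeded H460 by 5.77-fold (F test adjusted p = 0.00202), and among H1975, H1650 and H460 no pair passed. Without A549 the adjusted p was 0.134.

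ROR1, a receptor of WNT5A known mainly from embryonic tissue, separated H460 from the rest. Probe set 232060_at had 10.34 (SP) and 9.45 (MP) in A549, 6.94 (SP) and 7.06 (MP) in H460, 9.63 (SP) and 9.89 (MP) in H1650, and 10.43 (SP) and 10.02 (MP) in H1975. H460 lay over 2 log2 units below every other array and the remaining 3 lines overlapped. H1975 exceeded H460 by 9.35-fold (F test adjusted p = 0.00012, and 0.341 without H460), and no pair among H1975, A549 and H1650 passed. The dimmer probe set 211057_at had 6.27 (SP) and 5.51 (MP) in A549, 5.82 (SP) and 6.31 (MP) in H460, 7.77 (SP) and 7.68 (MP) in H1650, and 8.16 (SP) and 7.96 (MP) in H1975, so that it placed A549 with H460 rather than with the EGFR mutant lines. Its means in A549 (5.89) and H460 (6.07) lie near the filter level of 6.00, where values are imprecise. Probe set 205805_s_at had A549 at 8.50, beside H1650 (8.35) and H1975 (8.38).

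H460 was the lowest line for 6 of the 9 genes (MET, MST1R, AXL, INSR, FGFR4 and ROR1) and for 14 of the 26 probe sets, and for 28.6% of all probe sets tested. It was the highest for IGF1R and FGFR3, in neither case past the threshold against A549. A549 was the lowest for 0 genes and 1 probe set. The H460 arrays also had the lowest medians over all probe sets, and after quantile normalization, which gives all arrays the same median, H460 was the lowest for 6 of the 9 genes, 13 of the 26 probe sets and 24.3% of all. H460 also stood apart in some cell type markers. Of the epithelial markers CDH1 was far below the filter there and EPCAM had 5.97 in SP and 5.25 in MP against at least 8.68 elsewhere, while KRT19 was highest in H460 (13.88 in SP and 13.89 in MP). Of the fibroblast markers LUM (10.27 in SP and 10.53 in MP) and COL3A1 (10.45 in SP and 10.60 in MP) were highest in H460, whereas COL1A2 (6.19 in SP and 6.13 in MP) and PDGFRB (6.28 in SP and 6.24 in MP) were lower there than in H1975, and DCN (6.79 in SP and 6.60 in MP) lay within the range of the other lines. Of the 5 fibroblast markers 4 passed the filter, and the log2 of the summed signal of all 5 ranged from 8.87 to 11.50 over SP arrays and from 8.04 to 11.68 over MP arrays. The part of these marker differences in the lower receptor signals of H460 was not tested. In RNA from many cells, fewer cells that express a gene and less RNA per cell cannot be told apart.

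Counted by pairs of lines, H460 and H1975 differed at 18 of 26 probe sets and 7 of 9 genes, against 46.3% of all probe sets. H460 and H1650 differed at 16 probe sets and 7 genes (47.6% of all), A549 and H1975 at 14 and 6 (44.2%), and A549 and H460, the K-Ras mutant pair, at 13 and 6 (32.2%). A549 and H1650 differed at 12 and 5 (40.5%), and H1650 and H1975, the EGFR mutant pair, at 11 and 5 (41.5%). The K-Ras mutant pair differed at MET, MST1R, AXL, INSR, FGFR4 and ROR1, each higher in A549, and the EGFR mutant pair at MST1R, AXL, IGF1R, INSR and FGFR1.

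**Figure D2:**
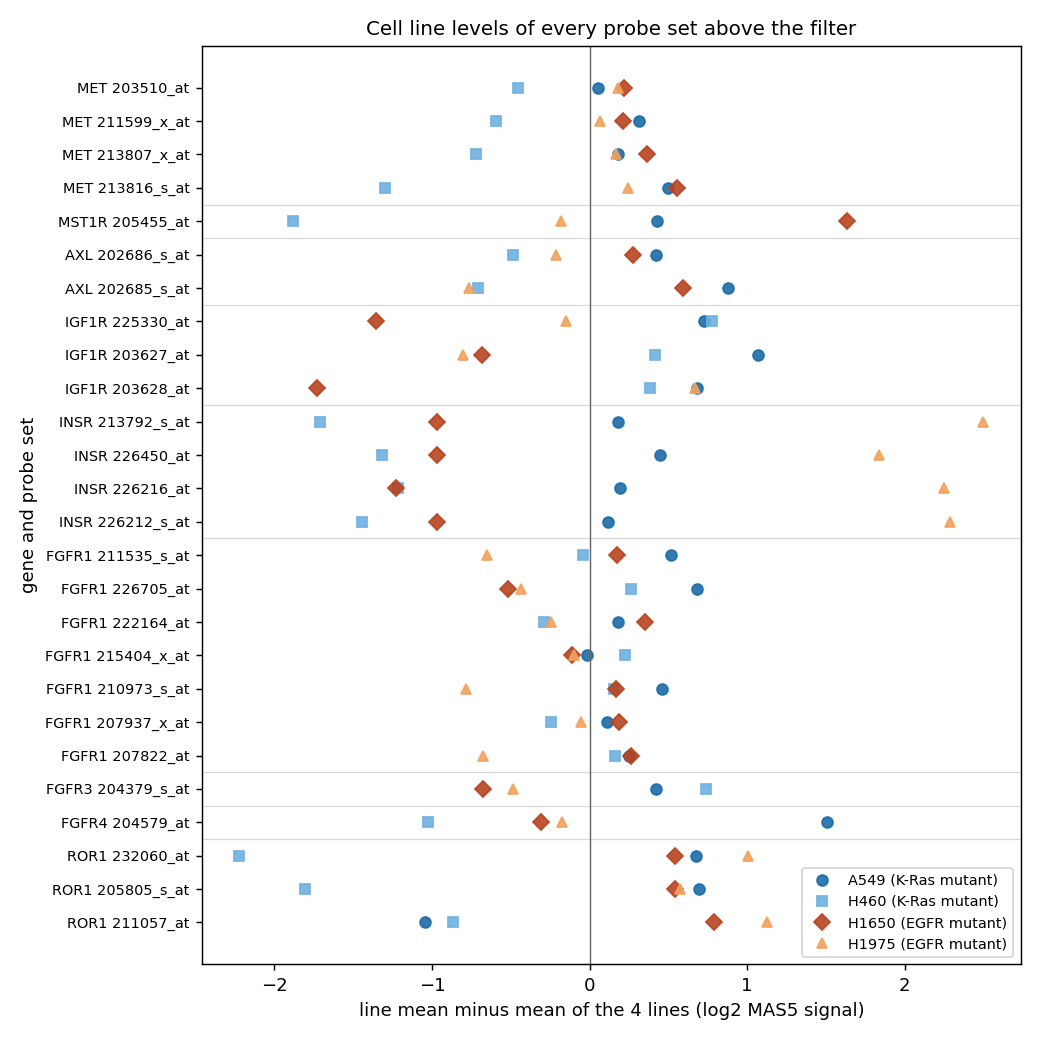
Log2 difference of each line mean from the mean of the 4 lines for the 26 member probe sets, grouped by gene. The H460 values are the lowest of the 4 lines for 14 of 26 probe sets, and the INSR probe sets are all highest in H1975.

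At the brightest probe set, INSR, MST1R and ROR1 had the widest span between lines and were all lowest in H460. Their promoters are shown so that the 3 can be compared (RefSeq, GRCh38.p14, 250 bases before to 50 after the start of the gene). They lie at chr19:7294365-7294664 (INSR, minus strand), chr3:49903824-49904123 (MST1R, minus strand) and chr1:63773767-63774066 (ROR1, plus strand). Capitals mark GC boxes, the letters GGGCGG on either strand with overlapping matches counted.
INSR: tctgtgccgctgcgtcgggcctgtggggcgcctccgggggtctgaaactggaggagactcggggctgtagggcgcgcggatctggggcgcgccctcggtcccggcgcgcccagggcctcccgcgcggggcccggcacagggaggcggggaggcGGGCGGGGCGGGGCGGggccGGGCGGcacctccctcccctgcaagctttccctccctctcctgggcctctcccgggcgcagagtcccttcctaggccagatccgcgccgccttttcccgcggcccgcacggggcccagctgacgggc
MST1R: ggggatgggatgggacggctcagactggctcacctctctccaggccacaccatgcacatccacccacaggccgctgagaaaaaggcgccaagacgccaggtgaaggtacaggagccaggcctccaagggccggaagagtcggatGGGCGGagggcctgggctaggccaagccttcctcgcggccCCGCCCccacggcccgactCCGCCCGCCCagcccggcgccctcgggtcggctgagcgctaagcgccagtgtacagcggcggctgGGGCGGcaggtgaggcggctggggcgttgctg
ROR1: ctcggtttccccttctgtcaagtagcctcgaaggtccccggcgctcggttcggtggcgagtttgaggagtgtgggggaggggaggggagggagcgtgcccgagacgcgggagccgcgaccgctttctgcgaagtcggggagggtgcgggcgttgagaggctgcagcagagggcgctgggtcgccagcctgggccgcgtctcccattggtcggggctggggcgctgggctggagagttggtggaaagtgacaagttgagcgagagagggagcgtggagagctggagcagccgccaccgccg
INSR held 4 GC boxes, MST1R held 5 and ROR1 held 0, and GC boxes were found in 45% of all 35116 RefSeq promoters of this length. The TATA box TATAAA (11.5% of promoters) and the AP-1 element TGANTCA (7.71%), searched on both strands, were in none of the 3. All had more CpG than the median of 14, with 36 in INSR, 25 in MST1R and 29 in ROR1. These counts exceed those of 87.3%, 68% and 75.8% of all promoters, so they are not unusual for MST1R and ROR1. Whether GC boxes bear on the low signal of these genes in H460 was not tested. A match is a description of the letters and not of binding.

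The genes whose signal followed these 3 most closely were taken from 12311 other genes by Pearson's r over the 8 arrays, which come from 4 lines and are pairwise alike. For INSR they were TECPR2 (r = 0.996), TNFRSF9 (0.995) and CX3CL1 (0.994), the last of which had log2 line means of 6.81 in A549 and 3.96 in H460, with 4.86 in H1650 and 10.78 in H1975. For MST1R they were TMEM65 (0.994), GARRE1 (0.993) and YTHDC1 (0.991), and for ROR1 TMEM216 (0.993), SYNJ2 (0.991) and MRTFA (0.991).

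The comparison of the K-Ras with the EGFR mutant lines asks whether receptor levels followed the mutation class. Fitted on line means with limma, 0 of the 26 probe sets passed at an adjusted p under 0.05, and 0% of all probe sets did. At an unadjusted p under 0.05 there were 4 of 26 (and 2535 over the array). With 2 lines against 2, an exact two-sided permutation test of a single gene could not go below 0.333. With the arrays of a line entered as correlated replicates (duplicateCorrelation) 226 probe sets passed over the array, and 0 of them were members.

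Among the 9 genes, 4 were higher and 5 lower in the K-Ras mutant lines, with no call in either direction. IGF1R averaged 11.84 in the K-Ras and 10.34 in the EGFR mutant lines, a difference of 1.50 ± 0.48 (SE, log2, adjusted p = 0.501), and its 4 K-Ras arrays lay above its 4 EGFR arrays. The second IGF1R probe set, 203627_at, gave 1.48 ± 0.40 (adjusted p = 0.456), also with no overlap. The third, 203628_at, gave 1.06 ± 0.88 (adjusted p = 0.729) and its arrays overlapped. Its line mean in H1975 was 9.15, against 9.16 in A549, 8.86 in H460 and 6.75 in H1650. The difference at the brightest IGF1R probe set ran from 0.90 (without H1650) to 2.10 (without H1975) when 1 line was left out. FGFR3 averaged 9.43 in the K-Ras and 8.26 in the EGFR mutant lines (1.16 ± 0.40, adjusted p = 0.517), again with no overlap of arrays. It was 0.82 in the SP arrays alone and 1.50 in the MP arrays alone. FGFR1 averaged 9.77 in the K-Ras and 9.30 in the EGFR mutant lines (0.47 ± 0.49, adjusted p = 0.780), which ran from 0.06 (without H1975) to 0.88 (without H1650). Its probe set 226705_at had no overlap (0.95 ± 0.39, adjusted p = 0.559), while 222164_at (-0.11) and 207937_x_at (-0.13) had the opposite sign. In all, 5 of 26 probe sets had no overlap between the 4 K-Ras and the 4 EGFR arrays, against 24% of all probe sets.

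At the brightest probe sets, the larger differences the other way moved too when 1 line was left out. ROR1 averaged 8.45 in the K-Ras and 9.99 in the EGFR mutant lines (-1.55 ± 1.03, adjusted p = 0.669), a difference of -0.10 without H460 and -2.99 without A549. Its dimmer probe set 211057_at gave -1.92 ± 0.44 (adjusted p = 0.380), with both K-Ras mutant lines below both EGFR mutant lines. The K-Ras mean there was 5.98, near the filter on dim signal, and leaving out a line was not run for that probe set. INSR averaged 7.70 in the K-Ras and 9.23 in the EGFR mutant lines (-1.53 ± 1.35, adjusted p = 0.745), a difference of 0.21 without H1975 and -3.26 without H1650. MST1R averaged 7.36 in the K-Ras and 8.81 in the EGFR mutant lines (-1.45 ± 1.04, adjusted p = 0.691), a difference of -0.30 without H460 and -2.61 without A549. MET averaged 12.77 in the K-Ras and 13.17 in the EGFR mutant lines (-0.40 ± 0.24, adjusted p = 0.638), a difference of -0.14 without H460 and -0.65 without A549. AXL averaged 11.37 in the K-Ras and 11.44 in the EGFR mutant lines (-0.06 ± 0.43, adjusted p = 0.970), and FGFR4 averaged 7.85 in the K-Ras and 7.37 in the EGFR mutant lines (0.48 ± 0.92, adjusted p = 0.888). AXL changed sign without H1650 (0.18) or without H460 (0.39) and was -0.52 without A549, and FGFR4 was -0.78 without A549 and 1.75 without H460. The class means were at least 2-fold apart at 11 of 26 probe sets, of which 4 were higher in the K-Ras mutant lines (3 of IGF1R and 1 of FGFR3) and 7 lower (3 of INSR, 3 of ROR1 and 1 of MST1R). Over the array 20.3% of probe sets were that far apart.

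**Figure D3:**
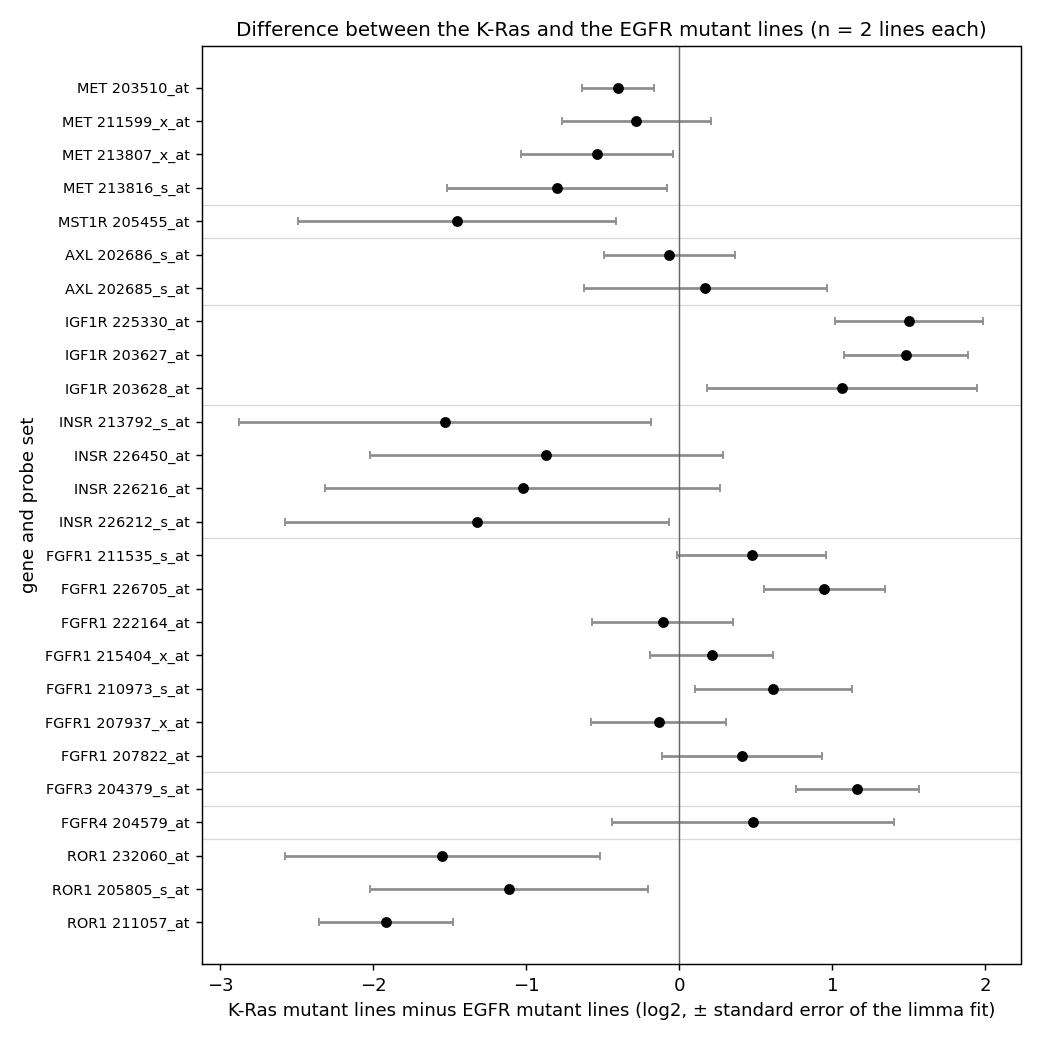
Difference of the K-Ras minus the EGFR mutant lines on the log2 scale for the 26 member probe sets, with the standard error of the limma fit as bars. The IGF1R probe sets lie to the right of 0 and those of INSR and ROR1 to the left, and 0 of 26 passed the test.

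The comparison of SP with MP asks whether the dye-effluxing cells carry another set of receptors. With the cell line as a block in limma, 0 of 26 probe sets passed, and 0% of all probe sets did. None of the 26 had an unadjusted p under 0.05, against 932 over the array, and their adjusted p ran from 0.944 to 0.997. The mean ratio was smaller than its SD over lines for 23 of the 26. An exact paired test with 4 lines could not go below 0.125. At the brightest probe set of each gene the mean ratio was also computed with each line left out in turn. It ran from -0.19 to -0.07 for MET, -0.08 to 0.09 for AXL, 0.06 to 0.19 for IGF1R, -0.21 to -0.10 for INSR and -0.31 to -0.10 for FGFR1. It ran from -0.08 to 0.38 for FGFR3, -0.51 to -0.05 for FGFR4, 0.01 to 0.40 for ROR1 and -0.03 to 0.24 for MST1R.

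At their brightest probe sets MET and AXL had small ratios in most lines. For MET the log2 ratio was -0.36 in A549 and -0.15 in H460, with -0.06 in H1650 and 0.00 in H1975, and a mean of -0.14 ± 0.16 (SD over 4 lines, and -0.17 without H1650). In A549, where this probe set was lower in SP, 211599_x_at (0.43) and 213807_x_at (0.58) of MET were higher in SP. AXL had -0.06 in A549, -0.08 in H460 and -0.09 in H1650 but 0.42 in H1975 (0.05 ± 0.25, and 0.09 without H1650). Only H1975 had this AXL probe set higher in SP, and there the dimmer, 202685_s_at, was higher too. It had 7.72 in SP and 5.62 in MP, a ratio of 2.10, where the other lines lay between -0.11 and 0.03. The MP value lies below the filter on dim signal, and each value is a single array.

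For IGF1R the ratios were -0.12 in A549 and 0.05 in H460, with 0.24 in H1650 and 0.29 in H1975 (0.11 ± 0.19, and 0.07 without H1650). The remaining IGF1R probe sets had 0.81 and 0.92 in H1650, where SP was higher at all 3. For INSR the ratios in the same order were -0.05, -0.34, 0.01 and -0.24 (-0.16 ± 0.16, and -0.21 without H1650). Neither had 1 direction in all lines. MST1R was higher in SP in A549 (0.37) and H460 (0.33), with 0.03 in H1650 and -0.45 in H1975, a mean of 0.07 ± 0.38 that was 0.08 without H1650, -0.03 without A549 and -0.02 without H460.

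Among the FGF receptors the direction varied between lines. FGFR1 211535_s_at had -0.30 in A549 and -0.15 in H460, with -0.48 in H1650 and 0.14 in H1975 (-0.20 ± 0.26, and -0.10 without H1650). FGFR1 210973_s_at was higher in SP in 4 of 4 lines (0.46, 0.20, 0.20 and 0.38), with the smallest unadjusted p of the set, 0.0772, while FGFR1 222164_at was lower in SP in 4 of 4 (-0.20, -0.25, -0.30 and -0.04). These 2 probe sets of 1 gene went opposite ways, and 2 of 26 with 1 direction in all lines compares with 10.4% of all probe sets. FGFR3 had a ratio of 1.01 in H1650, where A549 had -0.37, H460 had 0.07 and H1975 had 0.05, so that its mean of 0.19 ± 0.58 was -0.08 without H1650. FGFR4 had -0.80 in A549 and -0.65 in H460, with -0.08 in H1650 and 0.56 in H1975 (-0.24 ± 0.62, and -0.29 without H1650).

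ROR1 had ratios of 0.89 in A549 and -0.11 in H460, with -0.26 in H1650 and 0.41 in H1975 (0.23 ± 0.52, 0.40 without H1650 and 0.01 without A549). In A549 all 3 of its probe sets were higher in SP (0.89, 1.10 and 0.76), and in H460 all 3 were lower (-0.11, -0.69 and -0.49). Each line has 1 array per population, so neither has a replicate check.

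Ratios of at least 2-fold in either direction were few among the 26 probe sets, as they were over the whole array. There was 1 in A549 (ROR1 205805_s_at, 1.10) against 5.08% of all probe sets, 0 in H460 (4.29%), 1 in H1650 (FGFR3 204379_s_at, 1.01) against 3.85%, and 2 in H1975 (AXL 202685_s_at, 2.10, and FGFR1 207822_at, 1.42) against 5.54%. At the brightest probe set SP was higher for 2 of 9 genes in A549 and 3 in H460, and for 4 in H1650 and 7 in H1975.

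**Figure D4:**
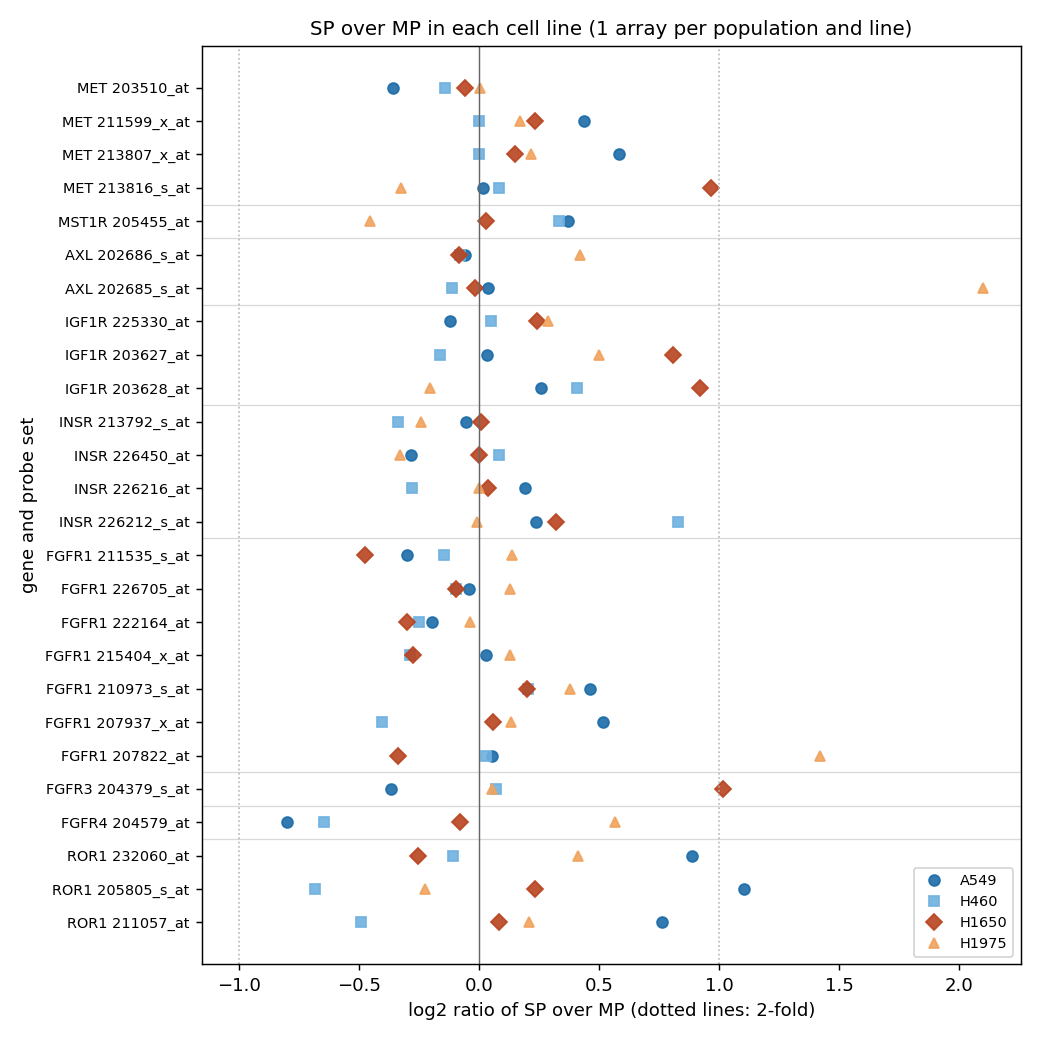
Log2 ratio of SP over MP for each of the 26 member probe sets, grouped by gene, with 1 point per line and dotted lines at 2-fold. The ratios scatter around 0, and those past 2-fold are AXL 202685_s_at at 2.10 and FGFR1 207822_at at 1.42 in H1975, ROR1 205805_s_at at 1.10 in A549 and FGFR3 204379_s_at at 1.01 in H1650.

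Whether the SP to MP ratio differed between the mutation classes was tested as an interaction. In limma it passed for 0 of 26 probe sets and 0% of all, with adjusted p from 0.981 to 0.999. At an unadjusted p under 0.05 there were 2 of 26 and 1234 over the array. These 2 were FGFR4 204579_at, where the mean ratio of the K-Ras minus that of the EGFR mutant lines was -0.96 (unadjusted p = 0.0423), and IGF1R 203627_at, where it was -0.72 (unadjusted p = 0.0156) and 0.09 with the labels of H1650 exchanged.

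The genes that act with these receptors were read at the brightest probe set of each, where the F test over the 4 lines passed for 9373 of 12312 genes of the array (76.1%) and the median span between lines was 1.13 on the log2 scale. It passed for 9 of 10 ligands above the filter, 16 of 17 genes of ligand handling, 17 of 19 adaptors, 12 of 13 negative regulators and 10 of 10 further receptor tyrosine kinases. In the K-Ras against EGFR and the SP against MP comparison, 0 genes of any of these lists passed, and 0 of the array did. The median SP over MP ratio lay between -0.05 and 0.01 in the 5 lists, against -0.02 over all genes. The median K-Ras minus EGFR difference was 0.81 for ligands, -0.17 for ligand handling, 0.00 for adaptors, -0.80 for negative regulators and -0.50 for further receptor tyrosine kinases, against -0.02 over all genes and -0.06 over the 9 receptors.

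Ligands and the proteins that handle them had the widest spans, with medians of 5.59 and 4.22. The filter acts on the mean over all arrays, so a gene dim in some lines passes it only through lines where it is high. That favours wide spans and F test passes in every list and over the array, so they are not evidence about the lists on their own. The span was at least 2-fold in 7 of the 10 ligands above the filter. It was less in HGF (0.97), MST1 (0.95) and GAS6 (0.95), ligands of MET, MST1R and AXL. The collagen IV chain COL4A2, a DDR1 ligand, had line means of 10.62 in A549 and 10.02 in H460, with 10.98 in H1650 and 2.88 in H1975 (adjusted p = 2.10e-06). COL4A1, its partner chain, had 5.28 in H1975 and 8.74 to 11.06 in the other lines (adjusted p = 2.91e-06). SPINT2, an inhibitor of the proteases that activate the ligands of MET and MST1R, had 13.05 in A549 and 2.19 in H460, with 13.17 in H1650 and 8.21 in H1975 (adjusted p = 7.35e-07). IGFBP2, a binding protein of insulin-like growth factors, had 10.22, 12.17, 12.81 and 2.38 in the same order (adjusted p = 1.86e-06).

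Adaptors and negative regulators varied less, with median spans of 1.52 and 1.44. GRB10, which binds the insulin and IGF1 receptors, had 10.71 in A549 and 8.44 in H460, with 5.97 in H1650 and 11.36 in H1975 (adjusted p = 1.34e-05). PTPRK, a receptor phosphatase, was lowest in H460 at 9.70 and highest in H1650 at 12.26 (adjusted p = 1.02e-05). Among the further receptor tyrosine kinases, whose median span was 2.20, FGFR2 had 10.46 in H1650 and at most 6.04 elsewhere (adjusted p = 6.79e-05). The gene of each list with the largest K-Ras minus EGFR difference missed the threshold too. The collagen V chain COL5A1 averaged 6.79 in the K-Ras and 11.64 in the EGFR mutant lines (-4.85 ± 1.51, SE, adjusted p = 0.487), IGFBP1 averaged 9.74 in the K-Ras and 2.76 in the EGFR mutant lines (6.98 ± 2.30, adjusted p = 0.505), and GRB14 averaged 8.82 in the K-Ras and 4.82 in the EGFR mutant lines (4.00 ± 1.97, adjusted p = 0.598). SOCS1 averaged 7.01 in the K-Ras and 9.01 in the EGFR mutant lines (-1.995 ± 0.46, adjusted p = 0.381). PTK7, a pseudokinase of Wnt signalling, averaged 4.90 in the K-Ras and 9.70 in the EGFR mutant lines (-4.79 ± 0.74, adjusted p = 0.218), but its A549 arrays were far apart (1.66 in SP and 6.38 in MP), and the difference was -6.10 in the SP and -3.49 in the MP arrays alone. The lower means of IGFBP1, GRB14 and PTK7 lie below the filter, where log2 differences are imprecise. So do the lowest line means of SPINT2, IGFBP2, COL4A2, COL4A1, GRB10, FGFR2 and COL5A1 (4.56 in H460 for COL5A1), so that their spans are imprecise too.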

How the data were processed

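SP and MP cells of 4 lung cancer lines had been hybridised to Affymetrix HG-U133 Plus 2.0 arrays, 1 array per population and line. The authors deposited log2 MAS5 signals, and GCOS 1.4 and MAS5 are named in the submitters' processing notes. The study's methods also name a log2 transformation and mean centring, but gene by gene the values as deposited carry no centring. On the linear scale each array had a 2% trimmed mean of 500.1. The number of arrays limits the precision. The members, the gene lists and the rules for naming genes were chosen with earlier results of these data known.

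Gene names came from the platform annotation (41091 with 1 symbol, 1801 with several and 11783 with none), and a gene was read at its probe set with the highest mean. The 62 controls and probe sets with a mean log2 signal under 6.00 were left out, which kept 27307. Tests were lmFit and eBayes with trend (limma 3.58.1, R 4.3.3), with Benjamini-Hochberg adjustment over all of these and a threshold of 0.05. The K-Ras and EGFR mutant lines were compared on line means, SP and MP with the line as a block, and the lines by an F test and pair contrasts with population as a term. The study's design states that the line pairs the arrays, and, as deviations from the SP or MP mean, paired arrays correlated at r of 0.838 to 0.918. The scripts were tested on simulated data. Beside the members, lists of ligands, ligand handling, adaptors, negative regulators, further receptor tyrosine kinases and cell type markers were read. Of each list the text names the gene with the smallest F test p (the 2 smallest for ligands and ligand handling) and the gene with the largest K-Ras minus EGFR difference. The alternatives were a floor, a pseudocount, quantile normalization, no filter, 1 probe set per gene, no trend, each line left out, 1 population only, duplicateCorrelation, no block and H1650 with its labels exchanged.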

Additional observations from a re-analysis of the deposited data

Results flagged for a closer look

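Over the member probe sets 44 sets of 4 values (the lines, within SP, within MP or as ratios) were searched for 1 value far from the other 3, and 4 were found. Chance flags about 1 in 20 such sets. The MP signal of MET 203510_at in H460 was 12.59, against 13.15 to 13.22 in the other lines. The MP signal of FGFR4 204579_at in A549 was 9.51, against 6.91 to 7.34 elsewhere. The log2 ratio of SP over MP of AXL in H1975 stood apart at both probe sets, at 0.42 for 202686_s_at (the other lines from -0.09 to -0.06) and at 2.10 for 202685_s_at (the other lines from -0.11 to 0.03). Each is a single array or a ratio of 2 arrays.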

How the results depend on the processing

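No member probe set passed in the K-Ras against EGFR, the SP against MP or the interaction comparison under any alternative run. Over the array the K-Ras against EGFR count was 226 with duplicateCorrelation, against 0. The SP against MP count over the array was 412 with the labels of H1650 exchanged and ran from 0 to 87 when 1 line was left out (87 without H1650), against 0. Without the replicate block, the SP against MP comparison gave 0 members and 0 probe sets over the array. The interaction count over the array ran from 0 to 449 when 1 line was left out (69 without H1650, 449 without H1975), against 0. Under the F test over the lines 23 member probe sets passed, against 9 where only 1 probe set per gene entered and 14 to 21 when 1 line was left out, and over the array 18969 passed, against 9385 with 1 probe set per gene. Fewer probe sets entered that setting by construction. Over all combinations of the 9 genes with the alternative settings, the F test was lost in 5 of 90. These were MET, FGFR3 and ROR1 without H460, FGFR4 without A549 and FGFR1 without H1975. So 5 of the 9 genes lost it when a certain line was left out.

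Signs of values that passed in no setting turned in these cases. For K-Ras minus EGFR, FGFR4 was -0.78 without A549 and -0.0011 in the SP arrays alone, AXL 0.18 without H1650, 0.39 without H460 and 0.0539 in the MP arrays alone, and INSR 0.21 without H1975. For SP over MP, MST1R was -0.031 without A549 and -0.019 without H460, FGFR3 -0.0821 without H1650, and AXL -0.0751 without H1975. With the labels of H1650 exchanged FGFR3 was -0.31, IGF1R -0.0067, FGFR1 0.0405 and the interaction of IGF1R 203627_at 0.0868. The cause was not tested. All other values kept their direction (111 of 117, 101 of 108 and 20 of 21 in these 3 comparisons). With 1 array per population and line, ratios within a line have no replicate check, and dim MAS5 signals give wide log2 ratios.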
